A study of Homo sapiens with 6 samples.

Results

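The cyclin-dependent kinase (CDK) inhibitor genes are the 7 rows of the deposited table named CDKN1A, CDKN1B and CDKN1C (the CIP/KIP family) and CDKN2A, CDKN2B, CDKN2C and CDKN2D (the INK4 family). They were chosen by symbol, 7 of 25662 genes, and all 7 were found. The RNA came from A375, an established line of human melanoma cells whose BRAF kinase is activated. Control libraries came from cells given DMSO, the solvent, and BMH-21 libraries from cells given 1 µM BMH-21 for 24 hours, with 3 libraries in each group, which the series' design text calls biological replicates. BMH-21, a small molecule that binds DNA, is an inhibitor of RNA polymerase I, which transcribes the ribosomal RNA genes. All 6 libraries share the cell line and the medium. The treatment protocol gives DMSO or BMH-21 for 24 hours, while the sample titles mark the controls as 0 hours. How long the controls were kept in DMSO is therefore not certain. The libraries come from a single cell line, and the labels do not say whether the replicates were separate cultures, so p-values measure the spread between these libraries.

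CDK inhibitors are small proteins that hold back the kinases driving the cell cycle. INK4 proteins bind CDK4 and CDK6 and keep them from pairing with D-type cyclins, which leaves the retinoblastoma protein able to hold E2F transcription factors. CIP/KIP proteins bind cyclin and kinase together, block CDK2 complexes of the S phase, and can also help D-type cyclins assemble with their kinases. Much of the control of CIP/KIP proteins, above all that of CDKN1B, works through their breakdown, which transcript levels do not show.

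Levels are given as TPM, transcript abundances divided by transcript length and scaled to a common total, so that members can be ranked within a library. A gene was tested where its mean over the 6 libraries reached 1 TPM, and 6 of the 7 members did. The test was limma on log2(TPM + 1), and a gene is called higher or lower at a two-sided Benjamini-Hochberg adjusted p under 0.05 over all 12481 tested genes. Log2 changes carry a standard error, TPM a standard deviation with n = 3 in each group. Control replicate 2 stood apart in its make-up, with 7.61% of TPM from mitochondrial genes against 10.9% to 14.6% in the other libraries. Without it the typical tested gene moved by 0.12 (median log2 change) in place of 0.19. In bulk RNA, fewer cells of a kind and less RNA per cell cannot be told apart.

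After BMH-21, 2 of the 6 tested CDK inhibitor genes rose, 3 fell and 1 was not called. The 2 that rose, CDKN1A and CDKN1C, were CIP/KIP genes, and the 3 that fell, CDKN2A, CDKN2C and CDKN2D, were INK4 genes. CDKN1A went up 10.2-fold in mean TPM and CDKN1C 3.81-fold, while the falls were between 1.41-fold and 1.61-fold. CDKN1B, the remaining CIP/KIP gene, was not called, and CDKN2B was listed near 0. Among all tested genes 23.3% were called higher and 12.9% lower, 36.2% in all, so calls were common in this comparison. The median log2 change of the 6 tested members was -0.14, against 0.19 for all tested genes. The groups did not overlap in 5 of the 6 tested members, against 52.3% of all tested genes. With median-of-ratios scaling, which sets each library by its typical gene, the median over all tested genes was 0.03, and log2 changes are therefore set beside 0.19 here. Of all calls 64.4% were rises, against 44.9% under that scaling. The number of members called lower was 3 without control replicate 2, 2 without control replicate 1, and 1 without control replicate 3 or without any single BMH-21 library.

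**Figure D1:**
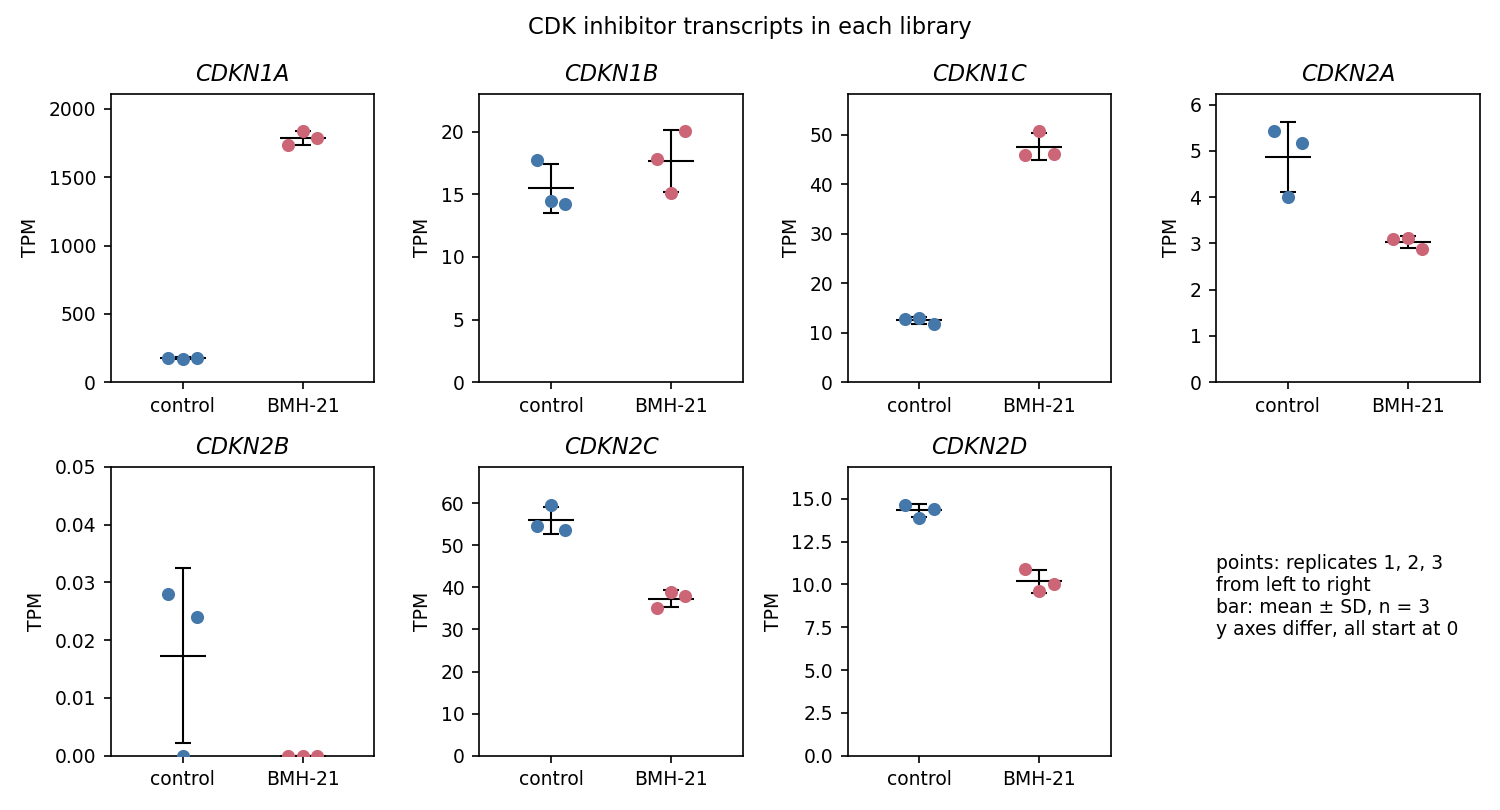
TPM of each CDK inhibitor gene (y axes, each starting at 0) in the 3 control and 3 BMH-21 libraries, with the mean and standard deviation as bars. CDKN1A and CDKN1C sit far higher with BMH-21, CDKN2A, CDKN2C and CDKN2D lower without overlap, CDKN1B overlaps, and CDKN2B is at most 0.0280 TPM.

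CDKN1A encodes p21, which binds cyclin and CDK complexes and also the replication clamp PCNA. Control replicates 1 to 3 held 178, 167 and 179 TPM. BMH-21 replicates 1 to 3 held 1735, 1837 and 1786 TPM. Every BMH-21 library lay far above every control library, and the spread within each group was small beside the gap. The means were 174 ± 6.82 and 1786 ± 51.4 TPM, a log2 change of 3.35 ± 0.08 (limma, 95% interval 3.17 to 3.52, adjusted p = 8.03e-07). This was the 10th largest rise on the log2 scale among the 12481 tested genes. Ordered by TPM, CDKN1A stood at place 725, 761 and 730 of 25662 genes in the control libraries and at place 100, 90 and 99 in the BMH-21 libraries. The gene was thus already well expressed before treatment, and it rose into the most abundant transcripts of the library. Its call held in each of the 15 alternative settings, with log2 changes from 3.16 to 3.39.

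CDKN1A lies on chromosome 6 (GRCh38.p14, 36676463 to 36687332). The 250 bases upstream of its 1 listed RefSeq start site are shown because this is a start region of the member with the largest change. The window lies inside the span given above, so it is not the region before the first base of that span. The capitals mark GC boxes, the letters GGGCGG or their reverse complement.
CDKN1A, chr6:36678464-36678713, plus strand: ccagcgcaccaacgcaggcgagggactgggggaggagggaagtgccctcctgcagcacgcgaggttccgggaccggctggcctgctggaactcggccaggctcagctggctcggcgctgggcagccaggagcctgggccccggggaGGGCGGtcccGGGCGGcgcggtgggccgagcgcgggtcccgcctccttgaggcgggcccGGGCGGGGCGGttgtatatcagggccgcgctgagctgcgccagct
Of its bases 76.4% were G or C, against a median of 58% over 35116 RefSeq start windows of the same length. It held 4 GC boxes, a pair of which share a G, and on neither strand a TATA box (the letters TATAAA), found in 10.7% of all windows, or a CCAAT box, found in 32.0%. It held no E-box, which is spelled CACGTG and was found in 6.35% of them. At least 1 GC box was present in 42.6% of all windows, so its presence is common, and such a match is a description of the letters and not of a bound site.

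CDKN1C encodes p57, an imprinted CIP/KIP inhibitor best known from development and from tissues that stop dividing. The controls held 12.8, 12.98 and 11.7 TPM and the BMH-21 libraries 45.9, 50.7 and 46.0 TPM, in replicate order. The lowest BMH-21 library lay far above the highest control. The means were 12.5 ± 0.714 and 47.6 ± 2.75 TPM (log2 change 1.85 ± 0.10, limma, 95% interval 1.61 to 2.09, adjusted p = 1.31e-05). It was the 114th largest rise among tested genes, and its call held in all 15 alternative settings. CDKN1C lies in an imprinted region of chromosome 11 (2883218 to 2885775). KCNQ1OT1, the non-coding RNA that silences CDKN1C on the paternal chromosome, was at 0.131 TPM or below in all 6 libraries. PHLDA2, an imprinted growth-restricting gene close by, rose by 0.50 on the log2 scale, from 149 ± 25.2 to 210 ± 22.7 TPM (limma, adjusted p = 0.0262), a call that median-of-ratios scaling ended (adjusted p = 0.0793), as did leaving out BMH-21 replicate 1 (0.0742) or 2 (0.0727).

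CDKN1B encodes p27, which restrains CDK2 and is destroyed as cells enter the S phase. The controls held 17.7, 14.5 and 14.3 TPM and the BMH-21 libraries 17.8, 15.1 and 20.05 TPM, in replicate order. The ranges overlapped: BMH-21 replicate 2 lay below control replicate 1. The means were 15.5 ± 1.94 and 17.7 ± 2.45 TPM, and the gene was not called (log2 change 0.18 ± 0.15, limma, 95% interval -0.16 to 0.51, adjusted p = 0.363). Its log2 change was close to the 0.19 of all tested genes, and under median-of-ratios scaling it was -0.000343 (adjusted p = 0.999). The interval does not show that CDKN1B stayed level, but its upper end lies well below the change of either other CIP/KIP gene.

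**Figure D2:**
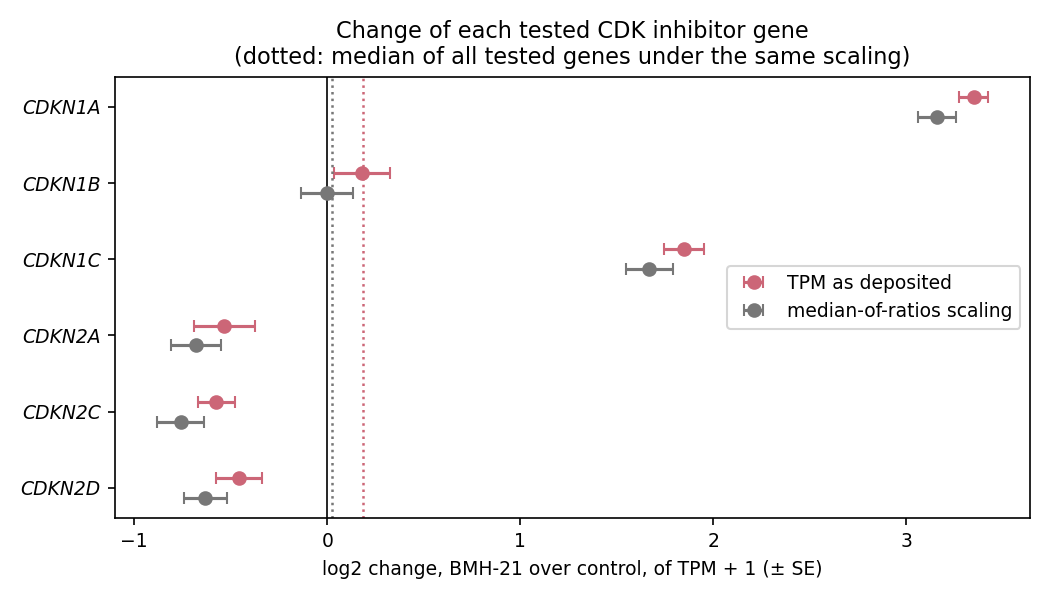
Log2 change of TPM + 1 (x axis, ± standard error) for the 6 tested CDK inhibitor genes, before and after median-of-ratios scaling; dotted lines are the medians of all tested genes, 0.19 and 0.03. CDKN1A and CDKN1C lie right of both lines, the 3 INK4 genes left of both, and CDKN1B close to them.

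CDKN2C encodes p18 and was the INK4 gene with the highest level in all 6 libraries. The controls held 54.7, 59.7 and 53.6 TPM and the BMH-21 libraries 35.02, 38.9 and 37.95 TPM, in replicate order. All BMH-21 libraries lay below all controls. The means were 56.0 ± 3.24 and 37.3 ± 2.01 TPM, a fall to 0.666 of the control level (log2 change -0.57 ± 0.09, limma, 95% interval -0.79 to -0.36, adjusted p = 0.00257). Its call held in all 15 alternative settings, with log2 changes from -0.76 to -0.53. CDKN2C lies on chromosome 1 (50960745 to 50974634), and FAF1, its neighbour, which takes part in cell death and protein breakdown, fell from 55.5 ± 8.35 to 39.8 ± 3.30 TPM (adjusted p = 0.0267). The call of FAF1 was lost without control replicate 1 (0.0740) or 3 (0.0859) and without BMH-21 replicate 1 (0.0915) or 3 (0.0961).

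CDKN2D encodes p19 and was the second INK4 gene by level. The controls held 14.7, 13.9 and 14.4 TPM and the BMH-21 libraries 10.9, 9.60 and 10.04 TPM, in replicate order. Again no BMH-21 library reached a control library. The means were 14.3 ± 0.389 and 10.2 ± 0.655 TPM (log2 change -0.46 ± 0.12, limma, 95% interval -0.73 to -0.19, adjusted p = 0.0184). The call was lost without control replicate 3 (adjusted p = 0.0536) and without BMH-21 replicate 1 (0.0593), 2 (0.0553) or 3 (0.0755).

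CDKN2A encodes 2 unrelated proteins from different first exons. These are p16, an INK4 inhibitor, and ARF, which is no CDK inhibitor and acts on MDM2. A375 cells are known to carry truncating CDKN2A mutations, so the transcript level says nothing of working protein. The transcripts of both proteins are joined in 1 value per library. Its controls held 5.43, 3.998 and 5.17 TPM and its BMH-21 libraries 3.10, 3.12 and 2.87 TPM. Control replicate 2 was the lowest control and still lay above the BMH-21 libraries. The means were 4.86 ± 0.761 and 3.03 ± 0.139 TPM (log2 change -0.53 ± 0.16, limma, 95% interval -0.89 to -0.17, adjusted p = 0.0305). The call was lost without control replicate 1 (adjusted p = 0.0764) or 3 (0.0900) and without BMH-21 replicate 1 (0.0990), 2 (0.0567) or 3 (0.107). The pseudocount of 1 shrinks the change of a gene at this level, and the ratio of means was 0.623.

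The start windows of the INK4 genes CDKN2A and CDKN2D are shown because CDKN2A has separate start sites for ARF and for p16, both on the minus strand of chromosome 9, and because they set genes that fell beside CDKN1A. Capitals mark GC boxes and, in CDKN2D, also CCAAT.
CDKN2A, upstream start, chr9:21995325-21995574, minus strand: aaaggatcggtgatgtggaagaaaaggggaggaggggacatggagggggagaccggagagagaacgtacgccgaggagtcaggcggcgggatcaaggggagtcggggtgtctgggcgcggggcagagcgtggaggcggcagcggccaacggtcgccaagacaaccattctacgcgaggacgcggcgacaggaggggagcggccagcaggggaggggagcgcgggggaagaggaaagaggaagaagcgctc
CDKN2A, downstream start, chr9:21974858-21975107, minus strand: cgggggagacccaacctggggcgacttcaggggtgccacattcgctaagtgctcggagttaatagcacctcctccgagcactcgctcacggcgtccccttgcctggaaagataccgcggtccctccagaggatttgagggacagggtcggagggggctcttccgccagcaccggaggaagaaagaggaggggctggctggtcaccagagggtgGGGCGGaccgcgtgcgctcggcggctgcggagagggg
CDKN2D, chr19:10568980-10569229, minus strand: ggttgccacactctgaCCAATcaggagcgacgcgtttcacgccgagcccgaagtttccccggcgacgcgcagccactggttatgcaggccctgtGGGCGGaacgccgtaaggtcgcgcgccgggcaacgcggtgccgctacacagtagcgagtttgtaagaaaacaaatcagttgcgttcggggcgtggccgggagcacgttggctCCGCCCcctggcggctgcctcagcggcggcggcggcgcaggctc
The window of the upstream CDKN2A start held no GC box and that of the downstream start held 1, while both were 66.8% G and C. CDKN2D held 2 GC boxes and 1 CCAAT box. The 3 CDKN2C windows held 0, 5 and 1 GC boxes, and the window of CDKN1A held 4. CDKN1C, which also rose, had no window. Whether these words go with the direction of change was not tested. The E2F word TTTGGCG was not found on either strand of the 9 windows of 6 members, and 1.59% of all windows held it. Nor was the word TTTCGCG found, which 1.10% of all windows held. The same holds for the word TTTCCCG, held by 3.66% of all windows, and for the CHR element (the letters TTTGAA), held by 13.3%. The short word GCGTG was found in at least 1 window of 5 of the 6 members, every one but CDKN2B, and in 32.2% of all windows.

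CDKN2B encodes p15 and was listed at 0.0280, 0 and 0.0240 TPM in the controls and at 0 in all 3 BMH-21 libraries. It did not reach the level for testing, and no change is given. The neighbouring CDKN2B-AS1, a non-coding RNA that overlaps CDKN2B on the other strand, was at 0.252 TPM or below, and CDKN2A-DT was listed at 0 in all 6 libraries. MTAP, the metabolic enzyme gene on the other side of CDKN2A, was well expressed, with 98.1, 47.0 and 91.2 TPM in control libraries and 71.2, 72.6 and 67.0 TPM in BMH-21 libraries. Its groups overlapped and it was not called (log2 change -0.09, adjusted p = 0.784). Without control replicate 2 MTAP was called lower with BMH-21 (log2 change -0.42, adjusted p = 0.00654), while without control replicate 1 the log2 change was 0.10 and without control replicate 3 it was 0.05. CDKN2A, CDKN2B and MTAP lie within chromosome 9 from 21802636 to 22009313.

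By family, CIP/KIP transcripts summed to 209, 194 and 204 TPM in the controls and to 1798, 1903 and 1852 TPM with BMH-21. INK4 transcripts summed to 74.8, 77.6 and 73.2 TPM in the controls and to 49.0, 51.6 and 50.9 TPM with BMH-21. CIP/KIP transcripts thus exceeded INK4 transcripts 2.69 ± 0.168 times in controls and 36.7 ± 0.247 times with BMH-21. CDKN1A alone made up 62.8 ± 1.49% of the 7-gene sum in controls and 93.9 ± 0.0703% with BMH-21. CDKN2C went from 20.2 ± 1.55% to 1.96 ± 0.0554% of that sum. Within the INK4 family the make-up moved little: CDKN2C held 74.4 ± 2.18% of the INK4 sum in controls and 73.8 ± 2.07% with BMH-21, and CDKN2D 19.1 ± 1.00% and 20.2 ± 1.85%. The order of the INK4 genes by level was CDKN2C, CDKN2D, CDKN2A, CDKN2B in every library. Among CIP/KIP genes CDKN1A was first in every library. CDKN1B lay above CDKN1C in each control library and below it in each BMH-21 library, and in the controls the means of 15.5 ± 1.94 and 12.5 ± 0.714 TPM differed by little more than the spread of CDKN1B.

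The change of CDKN1A was set against that of each other member within libraries, 6 pairs in all. The log2 distance between CDKN1A and CDKN1C grew from 3.70 to 5.20, so CDKN1A rose by 1.5 more than CDKN1C. The same difference was 3.17 for CDKN1B, 3.88 for CDKN2A, 3.92 for CDKN2C and 3.81 for CDKN2D. In each of these pairs the control and BMH-21 libraries were fully separated. With 3 libraries against 3, an exact two-sided permutation test cannot go below 0.1, and each of the 6 pairs gave that p, also after adjustment over the pairs.

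**Figure D3:**
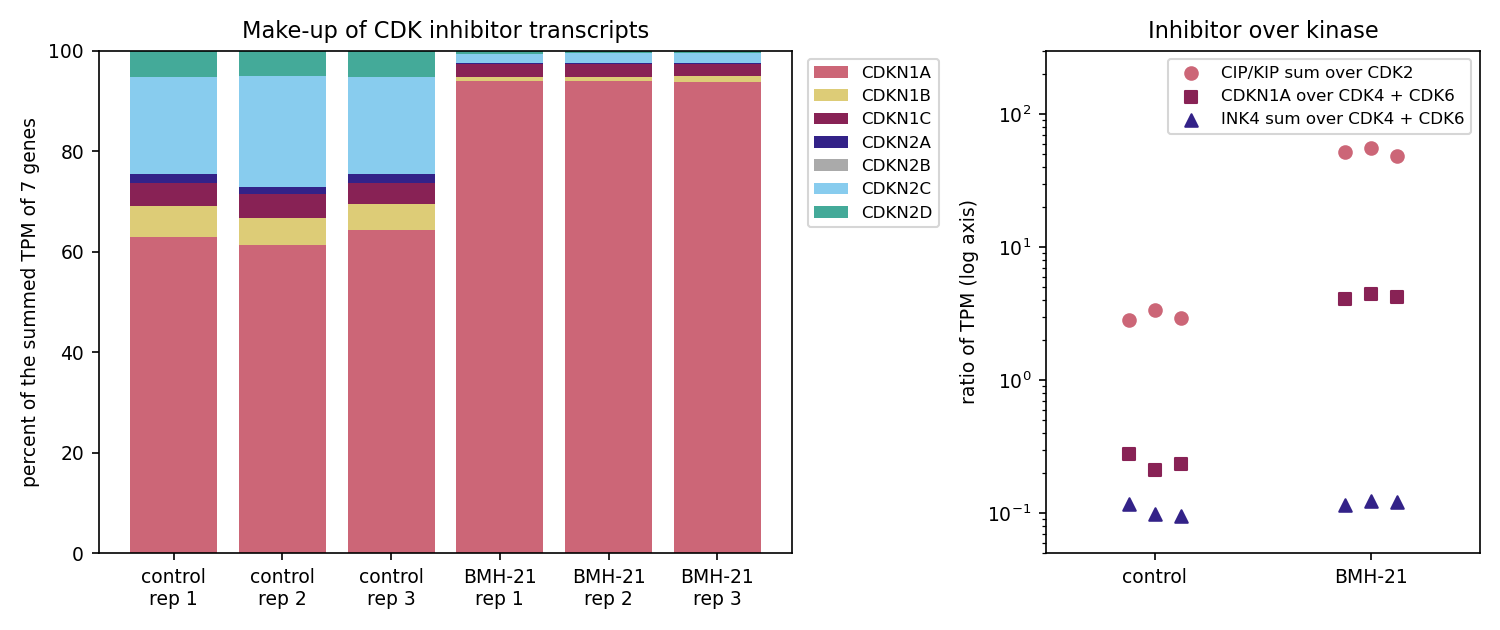
Left, the share of each gene in the summed TPM of the 7 CDK inhibitor genes in each library (percent). Right, ratios of TPM on a log axis, each point a library: CIP/KIP over CDK2 went from about 3.04 to 52.0 and CDKN1A over CDK4 and CDK6 from 0.241 to 4.24, while INK4 over CDK4 and CDK6 overlapped between the groups.

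Of the kinases listed, CDK4, CDK2 and CDK1 fell and CDK6 rose, while CDK3 and CDK7 were not called (adjusted p = 0.580 and 0.471). CDK4 fell from 732 ± 82.6 to 419 ± 5.02 TPM (log2 change -0.80, adjusted p = 0.000638) and CDK2 from 67.0 ± 8.49 to 35.7 ± 2.23 TPM (log2 change -0.89, adjusted p = 0.000881). CDK6 was low and rose from 0.937 ± 0.392 to 1.98 ± 0.164 TPM (limma, adjusted p = 0.0247). Its control mean lay below 1 TPM, so it reached the level for testing only through the BMH-21 libraries. The call was lost without a filter on low values (adjusted p = 0.0535). It was also lost without control replicate 1 (0.0664) or 2 (0.0547) and without BMH-21 replicate 1 (0.0763) or 3 (0.0838). INK4 transcripts per CDK4 and CDK6 transcript were 0.117, 0.0979 and 0.0953 in the controls and 0.115, 0.124 and 0.121 with BMH-21. These ranges overlapped. CDKN1A transcripts per CDK4 and CDK6 transcript were 0.241 ± 0.0351 in controls and 4.24 ± 0.172 with BMH-21. CDKN1A thus went from fewer to more transcripts than CDK4 and CDK6 together. It already stood above CDK2 in controls, at 174 ± 6.82 against 67.0 ± 8.49 TPM. CIP/KIP transcripts exceeded those of CDK2 in all 6 libraries, 3.04 ± 0.291 times in controls and 52.0 ± 3.56 times with BMH-21.

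Of 17 listed cyclins and cell cycle kinases, with the CDK-activating kinase included, 15 were tested. Of these 3 rose and 7 fell, and their median log2 change was -0.44 against 0.19 for all tested genes. The shares over all tested genes were 23.3% called higher and 12.9% lower. CCND1, the cyclin D1 gene, rose from 93.9 ± 21.3 to 189 ± 7.01 TPM, and the germline cyclin gene CCNA1 from 1.67 ± 0.196 to 3.96 ± 0.595 TPM. The largest fall was that of CCNB2, a mitotic cyclin, from 59.2 ± 6.20 to 2.97 ± 1.47 TPM (log2 change -3.98). The mitotic kinase CDK1 fell from 19.3 ± 6.32 to 1.05 ± 0.668 TPM and the G1/S cyclin CCNE1 from 19.4 ± 1.46 to 9.63 ± 0.732 TPM. CCNE2 did not reach the level for testing, at 0.905, 2.26 and 1.99 TPM in the controls and 0.189, 0.0582 and 0.204 TPM with BMH-21. Without a filter on low values, 2 genes of the list were called higher and 8 lower. CCND2, another D-type cyclin, was listed at 0 in all 6 libraries, and CCND3 was not called, at 53.4 ± 11.9 and 38.3 ± 1.88 TPM (adjusted p = 0.0655). Control replicate 2 was its lowest control, and CCND3 was called lower without that library (adjusted p = 0.00154) and under median-of-ratios scaling (0.00568) or quantile normalization (0.00991).

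Of 13 pocket protein, E2F and DP genes, 11 were tested, 3 fell and 0 were called higher (limma), with 1 higher at an unadjusted p under 0.05 and 1 called higher without control replicate 2. The median log2 change was 0.03, against 0.19 for all tested genes, of which 23.3% were called higher and 12.9% lower. RBL1 and E2F8 did not reach the level for testing, and both were lower in every BMH-21 library than in any control. RBL1 was at 0.671 to 1.34 TPM in controls and 0.227 to 0.262 TPM with BMH-21. E2F8 was at 1.05 to 2.01 and 0.0411 to 0.102 TPM. Without a filter on low values 5 genes of the list were called lower. E2F1, an activator of S phase genes, fell from 38.2 ± 4.06 to 1.56 ± 0.698 TPM (log2 change -3.97, adjusted p = 1.10e-05). E2F4, which mostly represses and had the highest level of the list, was at 125 ± 11.8 and 140 ± 8.77 TPM (adjusted p = 0.215). RB1, the retinoblastoma gene and end point of INK4 action, was low. Its controls held 1.85, 2.02 and 3.29 TPM and its BMH-21 libraries 3.62, 2.18 and 3.41 TPM. Its groups overlapped and it was not called (log2 change 0.27, adjusted p = 0.364).

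Among 22 genes that control the breakdown or stability of CIP/KIP proteins, all tested, 2 rose and 8 fell, with a median log2 change of -0.01. For all tested genes the median was 0.19, with 23.3% called higher and 12.9% lower. The ligases that mark p27 and p21 for destruction are built from several subunits, and their shared parts SKP1, CUL1, RBX1, CUL4A, CUL4B and DDB1 were not called. SKP2, the subunit that recognises p27, fell from 17.9 ± 1.00 to 6.32 ± 0.939 TPM, and its cofactor CKS1B from 334 ± 38.7 to 56.3 ± 4.65 TPM. DTL, which recognises p21 bound to PCNA, fell from 14.7 ± 1.66 to 0.400 ± 0.305 TPM, while DDB1, its partner in the same ligase and the gene with the highest level of the list, was at 249 ± 9.27 and 274 ± 14.7 TPM (adjusted p = 0.219). CDC20, an activator of the anaphase-promoting complex, had the largest fall, from 189 ± 10.8 to 10.5 ± 2.86 TPM. The genes that rose were RNF123, a ligase for p27 outside the S phase, from 54.4 ± 6.46 to 88.7 ± 6.90 TPM, and UHMK1, a kinase that moves p27 out of the nucleus, from 3.38 ± 0.847 to 7.01 ± 1.74 TPM. The call of UHMK1 (adjusted p = 0.0187) was lost without control replicate 1 (0.0555) and without BMH-21 replicate 1 (0.0754) or 3 (0.0714), and the number called higher was then 1 for each of those BMH-21 libraries.

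Of 35 transcription factors and chromatin proteins known to act on CDK inhibitor genes, all tested, 10 rose and 2 fell, with a median log2 change of 0.33 against 0.19 for all tested genes. Over all tested genes 23.3% were called higher and 12.9% lower. Under median-of-ratios scaling the counts were 5 and 4, beside 1928 and 2362 of all 12481 tested genes. KLF4, a zinc finger factor that activates CDKN1A, rose from 1.76 ± 0.468 to 8.37 ± 0.514 TPM (log2 change 1.78, adjusted p = 0.000181). EZH2, the methyltransferase of Polycomb repressive complex 2, which silences the locus of CDKN2A, fell from 13.4 ± 1.41 to 4.31 ± 0.944 TPM (log2 change -1.45, adjusted p = 0.000533). ID1, a repressor of CDKN2A with the highest level of the list, was at 174 ± 20.3 and 145 ± 5.36 TPM and not called (adjusted p = 0.0829, and, as a fall, 0.00839 under median-of-ratios scaling and 0.0220 when control replicate 2 was left out). MYC, which represses CDKN1A and CDKN2B with its partner ZBTB17, fell from 12.5 ± 2.88 to 8.38 ± 0.188 TPM (adjusted p = 0.0485), a call lost without any single library other than control replicate 2 (0.0842 to 0.130). ZBTB17 itself was called higher (log2 change 0.36, limma, adjusted p = 0.0428). So was TBX2, another listed regulator (log2 change 0.97, adjusted p = 0.00507). Without control replicate 1 or 3, or without any single BMH-21 library, 1 gene of the list was called lower. Without BMH-21 replicate 1 or 3, 5 were called higher.

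Of 22 locus neighbours of the members and transcripts named after them, 21 were in the table, 11 were tested, 2 rose and 4 fell (median log2 change -0.09). All tested genes had a median of 0.19, with 23.3% called higher and 12.9% lower. Without control replicate 2 the lower calls numbered 6. CDKN3, a phosphatase of CDK2 and CDK1 that shares only its name with both families, had the largest fall, from 11.5 ± 1.77 to 1.09 ± 0.378 TPM (log2 change -2.58, adjusted p = 4.66e-05). PANDAR, a non-coding RNA that starts upstream of CDKN1A, was listed at 0 in all 6 libraries, and RAB44 and CPNE5, on its other side, were at 0.0699 TPM or below. None of these 3 reached the level for testing. The 2 higher calls, PHLDA2 and KRI1, were both absent under median-of-ratios scaling and when BMH-21 replicate 1 or 2 was left out, and the number was 1 when control replicate 2 or 3 or BMH-21 replicate 3 was left out.

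**Figure D4:**
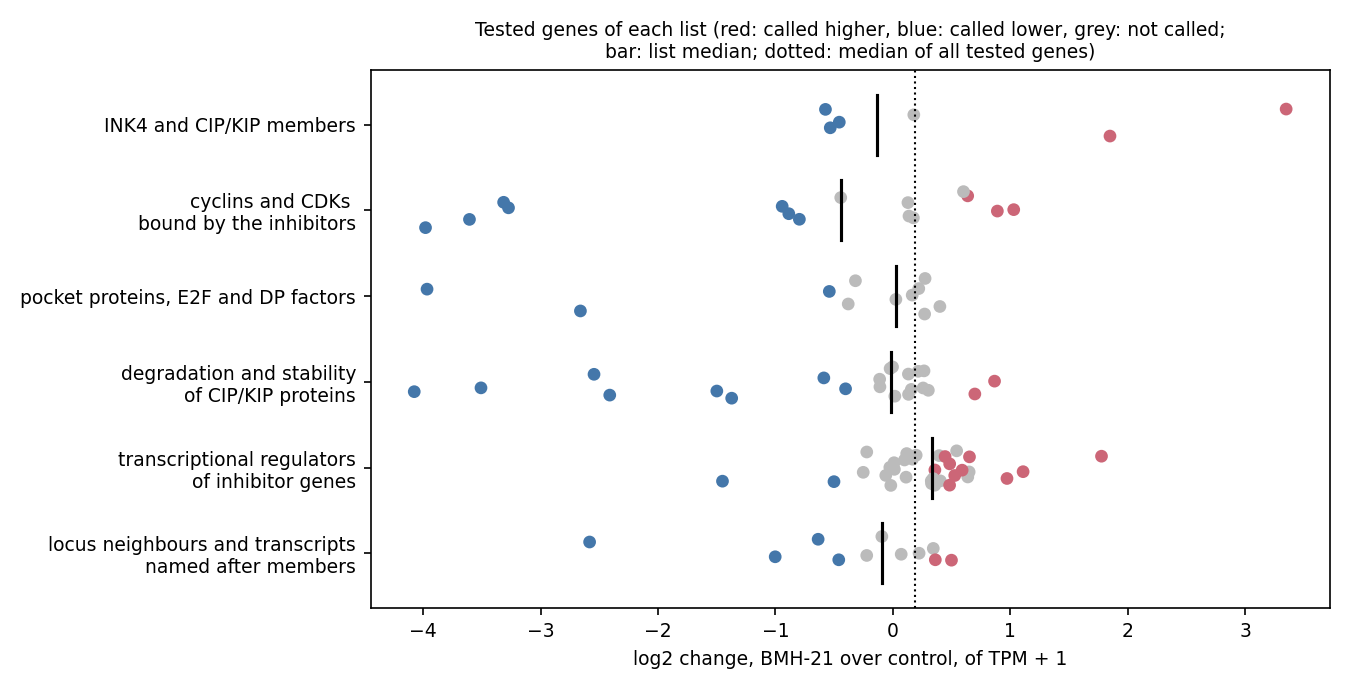
Log2 change of TPM + 1 (x axis) of each tested gene, by list; each point is a gene, black bars are list medians, and the dotted line is the median of all tested genes, 0.19. CDKN1A and CDKN1C are the points farthest right in the top line, and the cyclin and degradation lists reach log2 changes near -4.

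For each called member, the 3 tested genes with the closest profile over the 6 libraries were found by the Euclidean distance between profiles of log2(TPM + 1), each centred on its own mean. With libraries in only 2 groups, this measure mostly matches the size of the change. LNCTAM34A, a long non-coding RNA antisense to the microRNA gene MIR34A, was closest to CDKN1A (distance 0.0977) and went from 1.76 ± 0.151 to 26.5 ± 1.42 TPM. TRIM49D1, a member of a multicopy gene family, and the linker histone gene H1-2 followed at distances of 0.180 and 0.182. TRIM49D1 was near 0 in controls and went from 0.0348 ± 0.0602 to 9.98 ± 0.674 TPM. With a pseudocount of 0.1 its log2 change was 6.31 and that of CDKN1A 3.36, so their closeness depends on the pseudocount of 1. Closest to CDKN1C were the cytidine deaminase genes APOBEC3C (distance 0.178) and APOBEC3H (0.192) and the keratin gene KRT17 (0.179). APOBEC3C went from 36.8 ± 0.175 to 125 ± 5.61 TPM, while APOBEC3H and KRT17 were below 1 TPM in controls. With a pseudocount of 0.1 the log2 changes were 2.93 for APOBEC3H and 3.39 for KRT17. Those of CDKN1C and APOBEC3C were then 1.92 and 1.76. The closeness of APOBEC3H and KRT17 to CDKN1C thus also depends on the pseudocount of 1. Closest to CDKN2C were POLE3, a DNA polymerase epsilon subunit gene, the nuclear transport gene RAN and POLR1E, a subunit gene of RNA polymerase I (distances 0.0950, 0.109 and 0.123). POLR1E fell from 40.9 ± 1.96 to 26.6 ± 1.94 TPM. CDKN2A was closest to IPO9, LRRC45 and ADISSP (0.0645 to 0.0979) and CDKN2D to TOR3A, CDK5RAP3 and COA7 (0.107 to 0.122).

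The libraries held between 18268 and 18767 genes above 0 TPM in controls and between 19326 and 19867 with BMH-21. The test covered 6 of 10 melanocyte lineage genes, and 3 rose and 0 fell (limma, also 0 lower at an unadjusted p under 0.05). Calls over all tested genes were 23.3% higher and 12.9% lower. S100B rose from 77.5 ± 2.71 to 111 ± 0.724 TPM, S100A1 from 317 ± 29.7 to 411 ± 9.92 TPM (adjusted p = 0.0134, and 0.142 under median-of-ratios scaling) and PMEL from 0.809 ± 0.223 to 1.70 ± 0.0995 TPM. Without BMH-21 replicate 1 or 3 the calls of S100A1 (adjusted p = 0.0602 and 0.0612) and PMEL (0.0587 and 0.0600) were lost. SOX10, at 540 ± 126 and 654 ± 52.4 TPM, was not called, and the pigment cell genes MLANA, TYR, TYRP1 and DCT were at 0.487 TPM or below in all libraries and MLANA was at 0. Of 15 markers of keratinocytes, fibroblasts, endothelial cells and leukocytes, 13 were in the table and 4 were tested, of which 2 rose and 1 fell. Their sum was 65.7 to 69.4 TPM in controls and 71.1 to 74.9 TPM with BMH-21. That sum joins opposite changes. DCN, a matrix proteoglycan gene, rose from 0.597 ± 0.263 to 10.6 ± 1.37 TPM and the keratin gene KRT10 from 25.4 ± 3.06 to 41.7 ± 1.83 TPM, and CD68, a lysosomal protein gene used as a macrophage marker, fell from 36.8 ± 1.22 to 14.2 ± 1.35 TPM. The fibroblast collagens COL1A1 and COL1A2 were at 0.925 TPM or below. The part of other cells in the results was not tested.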

How the data were processed

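The values are TPM per gene symbol for 25662 genes in 6 libraries, deposited by the authors as a single table, and they are relative within a library. STAR, Salmon and the build GRCh38 are named in the submitters' processing notes, while versions, settings, annotation and strand use are not given there. Per the labels' protocols, RNA was depleted of ribosomal RNA with Ribo-Zero and copied with random hexamers, while the labels name the molecule polyA RNA. TPM keep no read totals, so the depth is unknown and counting intervals cannot be computed. Salmon shares reads among similar transcripts, and levels of multicopy genes such as TRIM49D1 are uncertain.

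TPM were analysed as log2(TPM + 1), which understates changes of low genes. Genes with a mean of at least 1 TPM were tested, 12481 in all, with limma 3.58.1 in R 4.3.3 (linear model, trended empirical Bayes, two-sided, Benjamini-Hochberg). The model was also run on simulated data. Far fewer genes changed there than were called here, and the noise was independent between genes. That run therefore cannot show how well the calls given here hold. Family sums and ratios carry no test. Members and lists were chosen with earlier results of these data known. The genes named are the members, 14 fixed genes, from each list the largest called rise, the largest called fall and the highest level, and the 3 nearest profiles of each called member. CCNA1, CCND3, CCND2, MYC, RNF123, FAF1, KRI1, SOX10, S100B, S100A1, PMEL, DCN, KRT10, CD68 and other genes given outside that rule were added after their values were seen. The alternatives were another pseudocount, filter, scaling, variance model, a replicate block and left-out libraries. The tested genes were the same except where the filter changed and where the 50 highest genes were left out (12431 tested). Start windows and gene positions are from RefSeq (GRCh38.p14), and 6 of 7 members had a start window. CDKN1C had none.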

Additional observations from a re-analysis of the deposited data

How the results depend on the processing

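Across the 15 alternatives CDKN1A, CDKN1C and CDKN2C kept their direction and their call, and CDKN1B was never called. CDKN1B changed sign with median-of-ratios scaling, at a log2 change of -0.000343. CDKN2A was not called without a filter on low values (log2 change -0.53, adjusted p = 0.0639), and it could not be fitted with a filter at 5 TPM. The log2 change of CDKN2A ran from -0.64 to -0.46 and that of CDKN2D from -0.50 to -0.42 with single libraries left out, and the number of members called lower from 1 to 3. The replicate numbers share no stated origin. Deviations from the group mean correlated at -0.04, -0.34 and -0.08 between same-numbered libraries, and from -0.31 to 0.33 between differently numbered ones. With 3 libraries in each group this cannot decide whether the numbers pair the samples. With the replicate number as a block, 3223 genes were called, 1 member was called lower, CDKN2A and CDKN2D kept log2 changes of -0.53 and -0.46 but lost their calls (adjusted p = 0.0759 and 0.0732), 5 regulators of inhibitor genes were called higher and 1 lower, and 0 locus neighbours higher. With single libraries left out, called genes ran from 2784 to 4794 and those called higher from 1673 to 2816. With median-of-ratios scaling 1928 genes were called higher and 2362 lower, the share of higher calls going from 64.4% to 44.9%, and 51.0% with quantile normalization. That scaling gave log2 ratios of the family sums of 3.0 (CIP/KIP) and -0.77 (INK4), quantile normalization -0.69 (INK4), against 3.19 and -0.57. Pocket protein, E2F and DP genes had 5 lower calls with either scaling or no filter, and 1 higher call with a pseudocount of 0.1, a filter at 5 TPM, no variance trend or without both number 2 libraries, and 0 to 1 with single libraries left out. Regulators had 5 higher and 4 lower calls with median-of-ratios scaling, 6 higher with quantile normalization and 6 higher and 1 lower with no filter, and from 5 to 9 higher and 1 to 3 lower with single libraries left out. Locus neighbours had 0 higher calls with median-of-ratios scaling or no filter and 1 without a variance trend, from 0 to 2 with single libraries left out. Degradation genes had 1 to 3 higher calls with single libraries left out, and cyclins and kinases 1 higher with a filter at 5 TPM. DDB1 (-0.055) and E2F4 (-0.024) changed sign with median-of-ratios scaling. MTAP changed sign without control replicate 1 (0.10) or 3 (0.05). With control replicate 2 left out, cyclins and kinases had 2 higher and 8 lower calls and pocket protein, E2F and DP genes 4 lower. CDK3 and CDK7, never called, changed sign under median-of-ratios scaling and quantile normalization. The causes were not tested.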
